A study of Mus musculus with 6 samples.

Results

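The translation initiation factors are the proteins that bring an mRNA and the initiator tRNA to the ribosome. They were taken as every protein-coding gene whose symbol begins with Eif1 to Eif6, without the Eif2ak kinases and Eif2s3y (not analysed here). This gave 49 of the 31130 genes in the deposited tables. RNA was sequenced in bulk from tumor tissue of 3 LC mice and 3 IP + LC mice, where LC stands for lung cancer and IP for interstitial pneumonia. Female wild-type C57BL/6 mice, 6 to 8 weeks old, received saline (LC) or 2.0 mg/kg bleomycin (IP + LC), a lung-damaging agent used to induce fibrosis, by oropharyngeal aspiration. On day 14 both groups received an injection of Lewis lung carcinoma (LLC), a murine cancer line carrying enhanced green fluorescent protein, in the left lung, and tumors were collected on day 21. The comparison asks which genes differ in tumors that grew in a bleomycin-injured lung.

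Most mRNAs are translated after the cap at their 5′ end is bound by eIF4F, which joins the cap-binding protein eIF4E, the scaffold eIF4G and the RNA helicase eIF4A. The small ribosomal subunit meets this complex as a particle that holds eIF1, eIF1A, eIF3, eIF5 and the ternary complex of eIF2, GTP and initiator tRNA. Supply of eIF2-GTP by the exchange factor eIF2B and capture of eIF4E by the 4E-binding proteins are the classical points of control, under stress kinases and mTOR respectively, and tumors often depend on them.

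The 6 libraries held 592733 to 1631066 unique molecular identifiers (UMIs), each of which stands for an mRNA molecule counted near its 3′ end, and the smallest was LC replicate 1. This library also stood apart from its group: its log2 profile correlated with the other LC tumors at 0.794 to 0.835. LC replicates 2 and 3 correlated at 0.961 and the IP + LC tumors at 0.966 to 0.972. Tumors of different groups correlated at 0.746 to 0.817, a range that overlaps that of LC replicate 1 with its own group. The tissue differed between the groups as well. Airway epithelial markers summed to 47031 to 54131 CPM (UMIs scaled to equal library size, with TMM factors) in LC and 3200 to 6984 in IP + LC with 5 of 5 lower, and type 2 alveolar markers to 34446 to 43018 and 6039 to 11142 with 5 of 6 lower. Endothelial markers were lower in 6 of 6, at 942 to 1677 CPM against 354 to 443. The summed level of 6 proliferation markers was 482, 118 and 114 CPM in LC replicates 1, 2 and 3 and 1153, 1063 and 979 in IP + LC, with 5 of 6 higher. Macrophage markers covered 497 to 1772 and 1668 to 2067 CPM with 2 of 6 higher. Alveolar macrophage markers went the other way, at 1520.5 to 1917.7 CPM in LC and 210.7 to 427.8 in IP + LC with 5 of 5 lower. Also lower were 5 of 5 smooth muscle, 5 of 5 cardiac muscle, 4 of 5 type 1 alveolar, 4 of 5 B cell, 3 of 5 neutrophil and 4 of 4 tested erythroid markers. Fibroblast markers were mixed (2 of 6 higher, 3 lower), and 1 of 5 T cell markers was lower. No gene of these lists was at 0 throughout a group. The part of these shifts in the results that follow was not tested, and in bulk tissue fewer cells of a type and less RNA per cell cannot be told apart.

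Initiation factor mRNA was more abundant in the IP + LC tumors. Of the 49 genes, 47 had enough UMIs to be tested, and 15 of them (31.9%) were higher and 2 lower at an adjusted p below 0.1 in the quasi-likelihood test of edgeR, with adjustment over all 11240 genes tested. Among all genes tested, 16.8% were higher and 19.6% lower. The median log2 fold change was 0.34 for the initiation factors and 0.02 for all genes tested. Summed over the 49 genes, the level was 8291, 6685 and 6150 CPM in LC replicates 1, 2 and 3 and 10068, 10063 and 9479 CPM in IP + LC, so that every IP + LC tumor lay above every LC tumor. As a share of all UMIs this was 0.535 to 0.812% in LC and 0.976 to 1.06% in IP + LC. LC replicate 1 was the highest of the LC tumors in this sum, as it was in the proliferation markers.

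The IP + LC tumors lay wholly above the LC tumors for 18 of the 47 genes and wholly below for 3, while the groups overlapped for 26. Over all genes tested these shares were 21.6% above and 21.5% below. Without LC replicate 1, 29 initiation factors were higher and 3 lower, beside 28.3% and 28.7% of all genes tested, and all 15 genes named as higher with it were among the 29. Without any other tumor 4 to 8 were higher, beside 897 to 1307 of 11517 to 11787 genes tested. The fewest, 4 of 47, came without IP + LC replicate 2, close to the 7.61% of all genes tested that were higher there. Eif4a1, Eif4a2, Eif3c, Eif3d and Eif2s2 stayed past the limit in each of the 15 alternative analyses. The genes not tested were Eif3j2, with 1, 3 and 2 UMIs in LC and 5, 9 and 3 in IP + LC, and Eif4a3l2, which had 0 UMIs in every tumor. By library size alone, without the TMM factors, 3 UMIs correspond to 5.06 CPM in LC replicate 1 and to 1.84 to 2.24 CPM in the others.

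**Figure D1:**
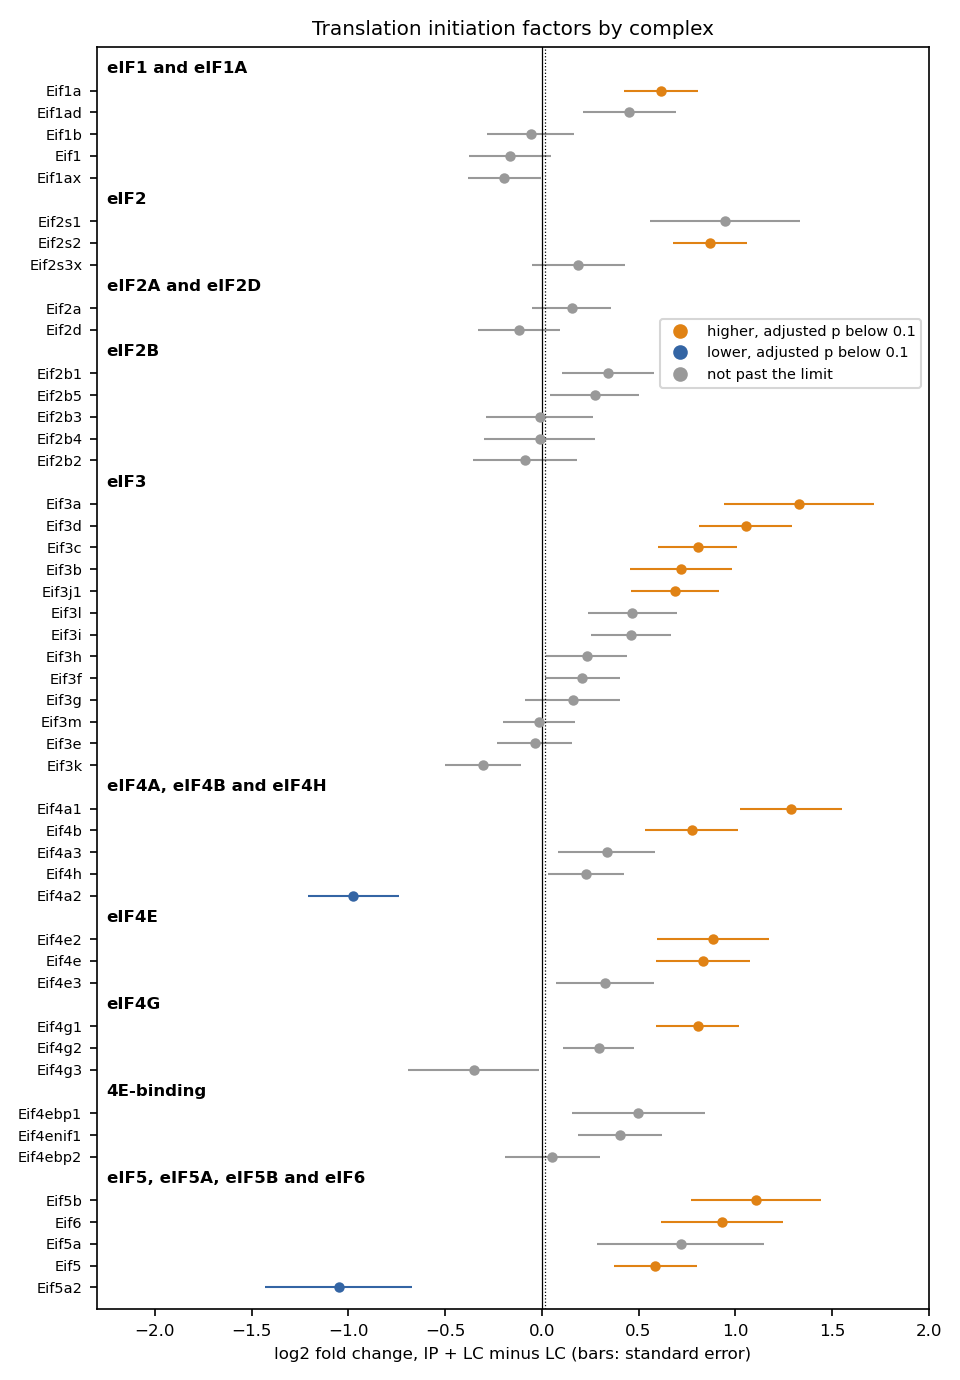
Log2 fold change of the 47 tested initiation factors (x axis, IP + LC minus LC, bars show the standard error), grouped by complex, with genes past the limit in orange (higher) or blue (lower). The dotted line is the median of all genes tested, 0.02. eIF3, eIF4 and the eIF5 group hold most of the orange points, eIF2B holds none, and Eif4a2 and Eif5a2 are the blue points. Among all genes tested 16.8% were higher and 19.6% lower.

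The helicase eIF4A gave the widest contrast among the 7 paralog pairs compared. Eif4a1 and Eif4a2 encode closely related forms of the enzyme, with 90.1% identical residues over 406 and 407 codons. Both carry the DEAD box that names this helicase family, and the coding sequence around it is shown because the 2 genes share it and moved in opposite directions. The capitals mark the DEAD codons, at chr11:69668713-69668724 on the minus strand in exon 6 of 11 for Eif4a1 and at chr16:23110263-23110274 on the plus strand in exon 6 of 11 for Eif4a2 (GRCm38, transcripts of GENCODE M21).
Eif4a1: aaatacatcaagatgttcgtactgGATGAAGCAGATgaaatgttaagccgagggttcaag
Eif4a2: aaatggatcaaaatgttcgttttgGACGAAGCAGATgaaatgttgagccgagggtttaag

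Eif4a1 had 506, 356 and 258 CPM in LC replicates 1, 2 and 3 and 945, 944 and 839 CPM in IP + LC. The lowest IP + LC tumor exceeded the highest LC tumor, and Eif4a1 rose 2.44-fold (log2 fold change 1.29, SE 0.26, edgeR adjusted p = 0.00851). Eif4a2 had 74.0, 114 and 119 CPM in LC and 49.3, 49.0 and 59.5 CPM in IP + LC. Here every IP + LC tumor was below every LC tumor, and Eif4a2 fell by 0.97 on the log2 scale (SE 0.23, edgeR adjusted p = 0.0158). Within each tumor the ratio of Eif4a1 to Eif4a2 UMIs, which does not depend on how the libraries are scaled, was 6.84, 3.14 and 2.18 in LC and 19.2, 19.3 and 14.1 in IP + LC, 4.80-fold higher in the mean of the logs. The exact permutation test gave 0.1, the smallest p that 3 against 3 allows. Copies of Eif4a1 match 68.8% of its transcript but none of its last 500 bases, and 13.3% of the exonic bases of Eif4a2 overlap other genes.

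The accessory proteins eIF4B and eIF4H stimulate the helicase. Eif4b had 184, 114 and 110 CPM in LC and 239, 231 and 222 CPM in IP + LC. The groups did not overlap, and Eif4b rose (log2 fold change 0.77, SE 0.24, edgeR adjusted p = 0.0412), a call that was lost without any single tumor other than LC replicate 1 (adjusted p of 0.1001 to 0.160). Eif4h (0.23, adjusted p = 0.423) and Eif4a3, the helicase of the exon junction complex (0.34, adjusted p = 0.350), did not pass the limit of edgeR's test. Without LC replicate 1 both did, at 0.36 (adjusted p = 0.0317) and 0.59 (0.00860).

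The mRNA of the cap-binding protein was higher too. Eif4e had 62.0, 43.9 and 36.4 CPM in LC and 95, 80.0 and 72.6 CPM in IP + LC, with no overlap (log2 fold change 0.83, SE 0.24, edgeR adjusted p = 0.0342). Its relative Eif4e2, whose product binds the cap weakly and is known for translational repression, had 103, 53.3 and 48.3 CPM in LC and 126, 124 and 116 CPM in IP + LC (0.88, SE 0.29, edgeR adjusted p = 0.0499). LC replicate 1 was the highest LC tumor for both genes, and without it the changes were 1.04 and 1.27. Eif4e lost its call without LC replicate 2 or 3 or IP + LC replicate 1 or 2 and after thinning of the libraries to equal depth (adjusted p of 0.110 to 0.194), and Eif4e2 without any tumor other than LC replicate 1 and after thinning (0.111 to 0.191). Eif4e3 differed by 0.33 (edgeR adjusted p = 0.375), with overlapping groups.

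Of the 3 scaffold genes 1 was higher and none lower, beside 16.8% and 19.6% of all genes tested. Eif4g1 had 179, 142 and 129 CPM in LC and 275, 285 and 222 CPM in IP + LC. It rose without overlap (log2 fold change 0.81, SE 0.22, edgeR adjusted p = 0.0241), a call that was lost only when IP + LC replicate 2 was left out among the analyses run (adjusted p = 0.108). Its paralog Eif4g3 had 41.3, 108 and 118 CPM in LC and 71.8, 61.3 and 82.1 CPM in IP + LC, where LC replicate 1 was the lowest of all tumors and the other LC tumors the highest. Its difference of -0.35 did not pass (edgeR adjusted p = 0.472), while without LC replicate 1 it was -0.65 (adjusted p = 0.00364). Eif4g2, which lacks the eIF4E-binding region and serves cap-independent initiation, lay higher in every IP + LC tumor but did not pass (0.29, edgeR adjusted p = 0.266; 0.0598 without LC replicate 1).

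**Figure D2:**
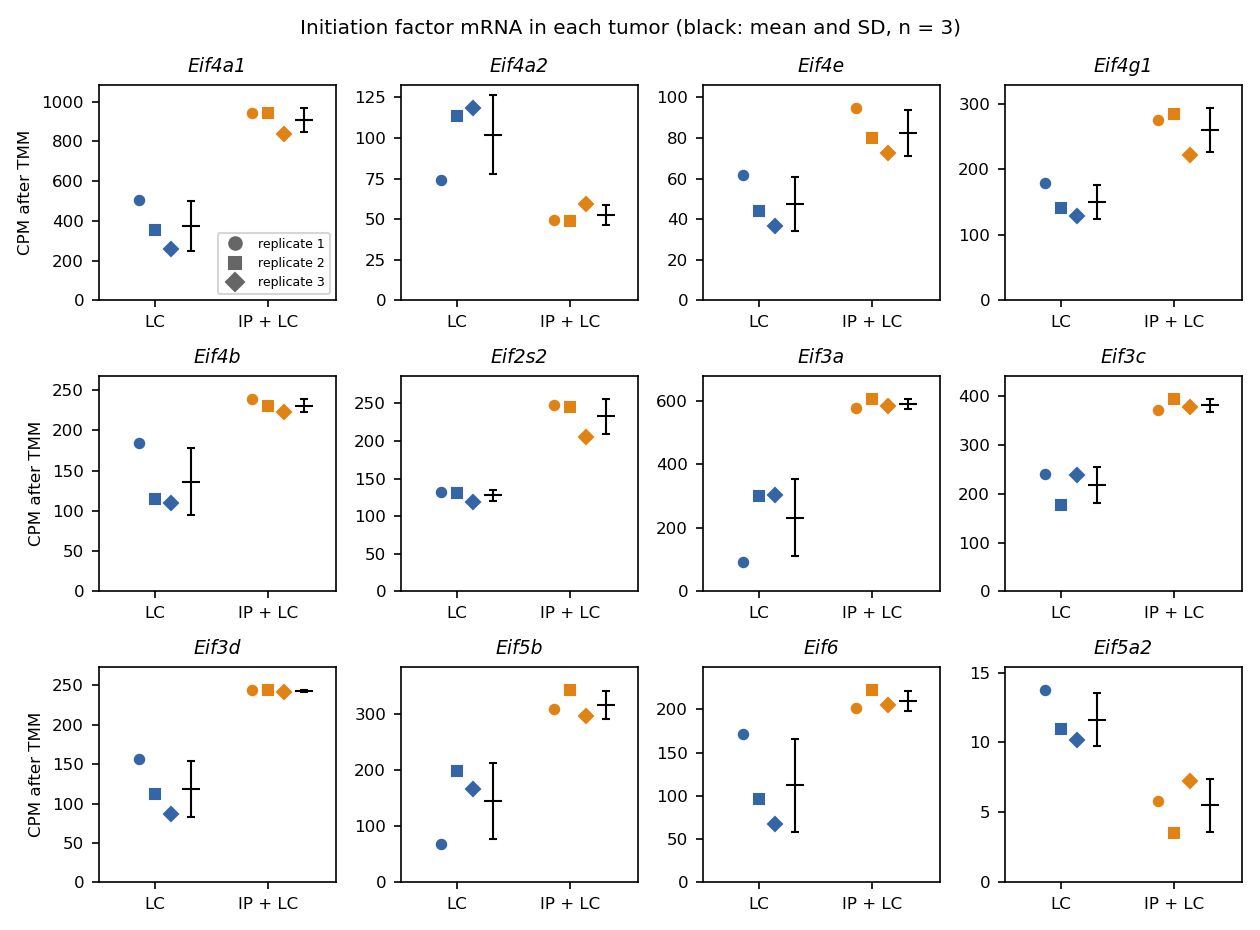
CPM after TMM scaling (y axis from 0) of 12 initiation factors in each tumor, LC in blue and IP + LC in orange, with marker shapes for the replicate and black bars for mean and SD (n = 3). The groups do not overlap in any panel; Eif4a2 and Eif5a2 are lower in IP + LC and the others higher, and LC replicate 1 lies apart from the other LC tumors for Eif3a (91.3 CPM), Eif5b (68.9 CPM) and Eif6 (172 CPM).

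eIF4G and the 4E-binding proteins compete for the same face of eIF4E through a short motif: tyrosine, 4 residues of any kind, leucine and a hydrophobic residue. The coding stretches that hold it are shown for the 5 genes because they are the link between the scaffolds and the inhibitors. Capitals mark the motif codons, which are codons 53 to 59 of 117 in Eif4ebp1, 54 to 60 of 120 in Eif4ebp2, 29 to 35 of 983 in Eif4enif1, 616 to 622 of 1600 in Eif4g1 and 637 to 643 of 1578 in Eif4g3. On GRCm38 they lie in exon 2 of Eif4ebp1 (chr8:27273337-27273357, plus strand), exon 2 of Eif4ebp2 (chr10:61435069-61435089, minus strand), exon 12 of Eif4g1 (chr16:20681221-20681241, plus strand) and exon 15 of Eif4g3 (chr4:138156650-138156670, plus strand), and across the junction of exons 2 and 3 of Eif4enif1 (chr11:3203742-3213271, plus strand, intron included).
Eif4ebp1: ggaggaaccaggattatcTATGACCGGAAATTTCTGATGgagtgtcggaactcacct
Eif4ebp2: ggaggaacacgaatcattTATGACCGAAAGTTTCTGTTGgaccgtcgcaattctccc
Eif4enif1: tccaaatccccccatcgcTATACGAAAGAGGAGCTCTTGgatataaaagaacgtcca
Eif4g1: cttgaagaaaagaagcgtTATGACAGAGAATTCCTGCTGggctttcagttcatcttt
Eif4g3: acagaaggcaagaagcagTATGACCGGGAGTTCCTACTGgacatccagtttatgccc

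None of the 3 4E-binding genes passed the limit of edgeR's test with all tumors, beside 16.8% higher and 19.6% lower among all genes tested. Eif4ebp1, the inhibitor released from eIF4E when mTOR phosphorylates it, had 248, 110 and 95.8 CPM in LC and 227, 214 and 188 CPM in IP + LC. LC replicate 1 was the highest of the 6 tumors and the other LC tumors were the lowest, so the difference of 0.50 had an SE of 0.34 (edgeR adjusted p = 0.313); without LC replicate 1 it was 1.04 (adjusted p = 6.50e-05), and with limma voom and quality weights, on all 6 tumors, 0.91 (0.00108). Eif4ebp2 had 65.4, 123 and 109 CPM in LC and 107, 103 and 105 CPM in IP + LC, a difference of 0.05 (edgeR adjusted p = 0.895) that was -0.14 without LC replicate 1 (adjusted p = 0.436) and with limma voom (0.468), and just below 0 under upper quartile scaling. Eif4enif1, which carries eIF4E into the nucleus and to mRNA storage granules, had 46.5, 40.0 and 33.0 CPM in LC and 45.0, 54.9 and 55.9 CPM in IP + LC (0.41, SE 0.22, edgeR adjusted p = 0.196), and was past the limit without LC replicate 1 (0.52, adjusted p = 0.0420) and with limma voom (0.0601). The ratio of Eif4ebp1 to Eif4ebp2 UMIs was 3.79, 0.892 and 0.876 in LC and 2.13, 2.09 and 1.80 in IP + LC, and these ranges overlapped through LC replicate 1 (exact permutation p = 0.4).

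eIF3 is the largest initiation factor and binds the small ribosomal subunit as a platform for the others. Of its 13 tested genes 5 (38.5%) were higher and none lower, beside 16.8% and 19.6% of all genes tested, with a median log2 fold change of 0.46. Eif3a, whose product is the scaffold around which the complex is built, had 91.3, 302 and 303 CPM in LC and 577, 606 and 582 CPM in IP + LC. It rose 2.51-fold without overlap (log2 fold change 1.33, SE 0.39, edgeR adjusted p = 0.0328). LC replicate 1 was the lowest by a wide margin; without it the change was 0.97, and the call was lost without IP + LC replicate 2 (adjusted p = 0.105).

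Eif3c, encoding the partner of eIF3a in the center of the complex, had 239, 176 and 239 CPM in LC and 371, 395 and 377 CPM in IP + LC (0.81, SE 0.20, edgeR adjusted p = 0.0195). Eif3d, whose product can bind the cap of selected mRNAs by itself, had 157, 112 and 86.4 CPM in LC and 244, 243 and 242 CPM in IP + LC (1.05, SE 0.24, edgeR adjusted p = 0.0133). The IP + LC tumors were nearly equal for both genes and lay above every LC tumor. For Eif3d, 43.3% of the exonic bases overlap the annotated gene Gm17638, and whether strand was used in counting is not given in the sources used here.

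Eif3b, encoding a WD-repeat subunit of the module that reaches the mRNA entry site, had 191, 110 and 103 CPM in LC and 245, 213 and 201 CPM in IP + LC (0.72, SE 0.27, edgeR adjusted p = 0.0738). Eif3j1, for a loosely bound subunit, had 39.6, 24.3 and 30.5 CPM in LC and 51.5, 49.0 and 47.2 CPM in IP + LC (0.69, SE 0.23, edgeR adjusted p = 0.0513). Both calls were lost without any tumor other than LC replicate 1 (adjusted p of 0.133 to 0.240 for Eif3b and 0.108 to 0.212 for Eif3j1) and after thinning, that of Eif3b also under upper quartile scaling (0.114) and that of Eif3j1 in DESeq2 (0.130). The aligned coding sequences of Eif3j1 and Eif3j2 are identical, so reads could be split between these 2 genes.

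The other 8 tested eIF3 genes did not pass. Eif3i and Eif3l lay above LC in every IP + LC tumor with differences of 0.46 and 0.47 (edgeR adjusted p = 0.131 and 0.166), and Eif3k lay below in every IP + LC tumor with -0.30 (adjusted p = 0.280). The remaining 5 lay between -0.04 for Eif3e and 0.23 for Eif3h, and the sign for Eif3e and Eif3m turned positive when libraries were scaled by size only. Without LC replicate 1, Eif3f, Eif3g, Eif3h, Eif3i and Eif3l were also past the limit and Eif3e, Eif3k and Eif3m were not.

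A set of subunits known to be conserved down to yeast (a, b, c, g and i) and the 6 subunits that complete the octameric core of the mammalian complex (e, f, h, k, l and m) were then summed. This split was chosen after the values were seen and is given with no test. Eif3d and Eif3j1, both called higher, and Eif3j2 are in neither sum. The ratio of the first sum to the second was 0.508, 0.585 and 0.654 in LC and 0.951, 0.960 and 0.942 in IP + LC. Thus UMIs of the first set were more numerous relative to the second in every IP + LC tumor than in any LC tumor, with nearly equal ratios within IP + LC. Stretches shared with other genes cover 71.8, 65.4 and 100% of the last 500 bases of Eif3e, Eif3h and Eif3m in the second set. They cover none of these bases for the other members of either set.

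**Figure D3:**
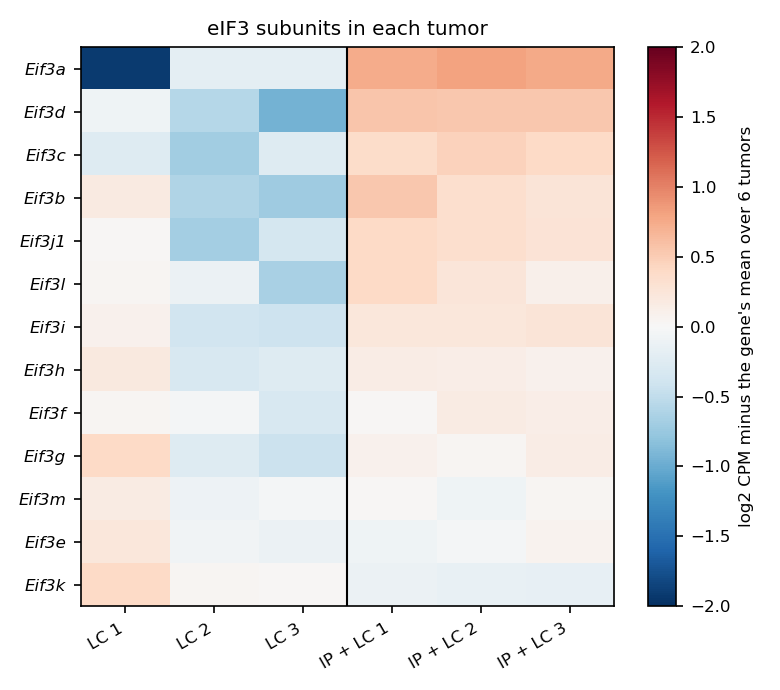
The 13 tested eIF3 genes (rows, ordered by fold change) in the 6 tumors (columns); color is log2 CPM minus the mean of that gene over the 6 tumors. Eif3a, Eif3d and Eif3c are blue in LC and red in IP + LC, the middle rows differ less, and Eif3k at the bottom is higher in LC replicate 1 (346 CPM) than elsewhere.

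eIF2 carries the initiator tRNA, and its 3 tested subunit genes differed by 0.19 to 0.95 with a median of 0.87. Eif2s2, for the beta subunit, had 133, 131 and 119 CPM in LC and 248, 245 and 205 CPM in IP + LC. The groups lay far apart, and Eif2s2 rose 1.82-fold (log2 fold change 0.87, SE 0.19, edgeR adjusted p = 0.0113). Eif2s1, for the alpha subunit that stress kinases phosphorylate, had 181, 68.9 and 59.3 CPM in LC and 215, 190 and 174 CPM in IP + LC. LC replicate 1 exceeded the lowest IP + LC tumor, and the difference of 0.95 (SE 0.39) was just outside the limit (edgeR adjusted p = 0.101). Eif2s1 was past it in 8 of the 15 alternatives, among them DESeq2 (adjusted p = 0.0944), library size only (0.0728), a replicate block (1.08, 0.0508) and the analysis without LC replicate 1 (1.59, 2.43e-06). Eif2s3x, for the gamma subunit that binds GTP and tRNA, had 20.2 ± 0.553 CPM in LC and 23.1 ± 3.13 CPM in IP + LC (mean ± SD, n = 3; 0.19, edgeR adjusted p = 0.595).

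eIF2B, the exchange factor that recharges eIF2 with GTP, showed no gene of 5 past the limit with all tumors, beside 16.8% higher and 19.6% lower among all genes tested. Eif2b1 passed without LC replicate 1 (0.46, edgeR adjusted p = 0.0903). Its 5 genes differed by -0.09 for Eif2b2 to 0.34 for Eif2b1 (edgeR adjusted p of 0.319 to 0.983), and the groups overlapped for each. The signs for Eif2b2, Eif2b3 and Eif2b4 turned positive under scaling by library size only. The median was -0.01 and became 0.16 under that scaling, which moved the median of all genes by 0.16 as well. Eif2a and Eif2d, for factors that can deliver the initiator tRNA without eIF2, differed by 0.15 and -0.12 with overlapping groups, and the sign for Eif2d turned under library size only.

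Of the 5 genes of eIF1 and eIF1A, which guard the choice of the start codon, 1 was higher and none lower, beside 16.8% and 19.6% of all genes tested. Eif1a had 103, 93.2 and 120 CPM in LC and 170, 155 and 162 CPM in IP + LC, with no overlap (log2 fold change 0.62, SE 0.19, edgeR adjusted p = 0.0428), and lost its call without LC replicate 2 or any of the IP + LC tumors (adjusted p of 0.110 to 0.166). Eif1ax encodes a protein with 98.6% identity to that of Eif1a. It had 126, 101 and 123 CPM in LC and 104, 98.6 and 102 CPM in IP + LC, which overlapped (-0.19, edgeR adjusted p = 0.478). The UMI ratio of Eif1a to Eif1ax was 0.822, 0.922 and 0.979 in LC and 1.64, 1.57 and 1.58 in IP + LC, with no overlap.

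Eif1 had 585, 486 and 392 CPM in LC and 459, 422 and 422 CPM in IP + LC (-0.17, SE 0.21, edgeR adjusted p = 0.595). Its paralog Eif1b had 49.9, 47.0 and 39.0 CPM in LC and 42.8, 35.6 and 51.6 CPM in IP + LC (-0.06, SE 0.22, edgeR adjusted p = 0.878), with a sign that turned under library size only. Both overlapped between the groups, as did Eif1ad, which encodes a protein with an eIF1A domain (0.45, edgeR adjusted p = 0.194; 0.0114 without LC replicate 1).

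The factors that act late, at start codon recognition, subunit joining and beyond, held 3 higher genes and 1 lower gene of 5, beside 16.8% and 19.6% of all genes tested. Eif5b, for the GTPase that joins the large ribosomal subunit, had 68.9, 198 and 166 CPM in LC and 307, 343 and 296 CPM in IP + LC. It rose 2.15-fold without overlap (log2 fold change 1.11, SE 0.34, edgeR adjusted p = 0.0384), by 0.80 without LC replicate 1, and was not past the limit without IP + LC replicate 1 or 2 (adjusted p = 0.102 and 0.128). Stretches shared with the neighboring gene Rev1 cover 47.8% of the last 500 bases of its transcript, so part of its UMIs may have been assigned to either gene.

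Eif6, encoding the factor that keeps the large subunit from joining too early and serves its maturation, had 172, 96.4 and 67.8 CPM in LC and 202, 223 and 206 CPM in IP + LC (0.93, SE 0.31, edgeR adjusted p = 0.0551). Eif5, for the GTPase activator of eIF2, had 158, 233 and 203 CPM in LC and 320, 311 and 265 CPM in IP + LC (0.59, SE 0.21, edgeR adjusted p = 0.0712). Neither gene overlapped between the groups. Eif6 lost its call without any tumor other than LC replicate 1 (adjusted p of 0.128 to 0.186), and Eif5 without LC replicate 3 or any IP + LC tumor (0.104 to 0.190), with a replicate block (0.126), under upper quartile scaling and after thinning.

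eIF5A helps the ribosome through difficult peptide bonds and carries hypusine, a modified lysine. Eif5a had 870, 328 and 230 CPM in LC and 785, 822 and 723 CPM in IP + LC. LC replicate 1 was the highest of all tumors, and the difference of 0.72 (SE 0.43) did not pass (edgeR adjusted p = 0.249), whereas it was 1.48 without this library (adjusted p = 4.30e-06). Eif5a2, whose protein is 83.0% identical and which was found at few molecules, had 8, 14 and 12 UMIs in LC and 8, 6 and 10 UMIs in IP + LC, or 11.6 ± 1.89 and 5.52 ± 1.90 CPM (mean ± SD, n = 3). It fell by 1.05 on the log2 scale (SE 0.38, edgeR adjusted p = 0.0702), a call lost without any tumor other than LC replicate 1, under library size only (adjusted p = 0.114), with no filter (0.287), in DESeq2 (0.178) and with a replicate block (0.133). The UMI ratio of Eif5a to Eif5a2 was 63.1, 29.9 and 22.6 in LC and 135, 235 and 99.6 in IP + LC.

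Thus 3 of the 7 paralog pairs compared, Eif4a1 with Eif4a2, Eif5a with Eif5a2 and Eif1a with Eif1ax, had ratios that lay higher in every IP + LC tumor than in any LC tumor, by 4.80, 4.06 and 1.75 times. Each had an exact two-sided permutation p of 0.1, the smallest 3 against 3 tumors can give, and 0.233 after Benjamini-Hochberg adjustment over the 7 pairs, so the design could not bring a pair past 0.05. The ratio of Eif4g1 to Eif4g3 was 4.33, 1.31 and 1.09 in LC and 3.83, 4.65 and 2.71 in IP + LC, overlapping through LC replicate 1 (p = 0.3, exact permutation). For Eif4e with Eif4e2 and for Eif1 with Eif1b the ratios overlapped and differed by -0.11 and -0.07 on the log2 scale (exact permutation p = 0.6 and 0.9), where the latter was 0.09 without IP + LC replicate 3.

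**Figure D4:**
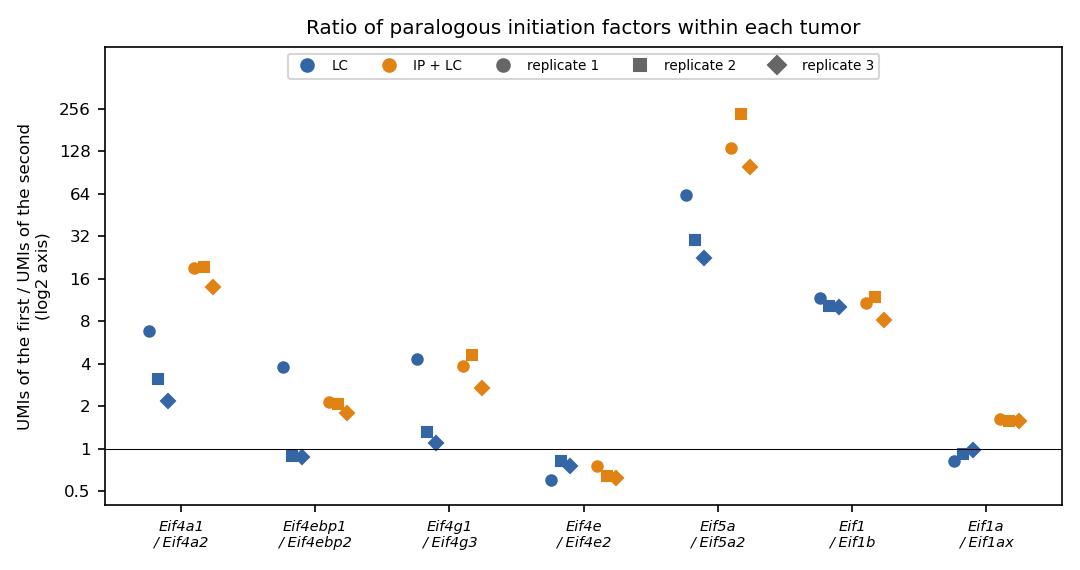
Ratio of UMIs of the first gene to UMIs of the second (y axis, log2 scale) for 7 pairs of paralogs in each tumor, LC in blue and IP + LC in orange, with marker shapes for the replicate. IP + LC lies above LC without overlap for Eif4a1 to Eif4a2, Eif5a to Eif5a2 and Eif1a to Eif1ax, and LC replicate 1 lies among or above the IP + LC tumors for Eif4ebp1 to Eif4ebp2 (3.79) and Eif4g1 to Eif4g3 (4.33).

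Genes that act on these factors were read from the same test. Of 9 kinases and phosphatase genes that set the phosphorylation of eIF2 alpha, 2 (22.2%) were higher and none lower, beside 16.8% and 19.6% of all genes tested. Eif2ak2, the kinase PKR that senses double-stranded RNA, rose from 27.9 ± 18.2 to 87.6 ± 15.8 CPM (mean ± SD, n = 3; log2 fold change 1.56, edgeR adjusted p = 0.0174), and Ppp1r15b, which guides a phosphatase to eIF2 alpha, by 0.62 (adjusted p = 0.0794). The call of Ppp1r15b held in 7 of 15 alternatives and was lost under upper quartile scaling, in DESeq2, with a replicate block, after thinning and without LC replicate 3 or any IP + LC tumor (adjusted p up to 0.238). Of 13 tested regulators of the cap complex, 3 (23.1%) were higher and 1 (7.69%) lower. Pabpc1, the poly(A)-binding protein that closes the loop through eIF4G, rose from 581 ± 37.9 to 1721 ± 209 CPM (1.57, edgeR adjusted p = 0.00149), and Pabpc4, its relative, by 1.29 (adjusted p = 0.0145). Larp1, which binds the cap of mRNAs for ribosomal proteins, rose by 1.63 (edgeR adjusted p = 0.00120). Paip2, an inhibitor of the poly(A)-binding protein, fell from 372 ± 39.7 to 159 ± 21.3 CPM (-1.23, edgeR adjusted p = 0.00354). These 4 regulators of the poly(A) and cap ends, with PKR, stayed past the limit in all analyses that tested them. Without LC replicate 1, where 28.3% of all genes tested were higher and 28.7% lower, Rptor (0.75, edgeR adjusted p = 0.0373) was also higher. Mknk2 (-0.52, 0.00962), Pdcd4 (-1.02, 0.000685) and Paip1 (-0.69, 0.000991) were then also lower. Of the eIF2 alpha genes, Ppp1ca (0.69, 0.00181) was also higher there and Ppp1cb (-0.63, 0.00117) lower.

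Of 8 genes for scanning, reinitiation and ribosome recycling, 2 (25.0%) were higher and 1 (12.5%) lower, again beside 16.8% and 19.6% of all genes tested. Abce1, the recycling ATPase, rose by 0.89 (edgeR adjusted p = 0.0103), Bzw2, a relative of eIF5, by 0.50 (0.0866), and Mcts1, a partner in reinitiation, fell by 0.55 on the log2 scale (0.0964). Abce1 stayed past the limit throughout, whereas Bzw2 and Mcts1 each did so in 5 of 15 alternatives and were lost in DESeq2, with a replicate block, with no filter, after thinning and without any tumor other than LC replicate 1, Bzw2 also under upper quartile scaling and Mcts1 under library size only (adjusted p up to 0.298 and 0.379 over all alternatives). Without LC replicate 1, where 28.3% of all genes tested were higher and 28.7% lower, Denr (0.56, edgeR adjusted p = 0.0272) and Bzw1 (0.42, 0.0313) were also higher. Ddx3x (-0.55, 0.00354) was then also lower. Of 11 tested genes of elongation, termination and eIF5A modification, 5 (45.5%) were higher and none lower. They were Gspt1, the release factor eRF3 (1.54, edgeR adjusted p = 0.00161), Etf1, its partner eRF1 (0.60, 0.0421), Eef1d and Eef1g, subunits of the exchange factor of eEF1A (0.62 and 0.67, 0.0423 and 0.0757), and Eef1e1, of the tRNA synthetase complex (1.08, 0.0217). Gspt1 stayed past the limit throughout, and Eef1e1 was lost without LC replicate 2 or IP + LC replicate 2 (adjusted p up to 0.103). Eef1d, Eef1g and Etf1 were lost without any tumor other than LC replicate 1, Eef1d and Eef1g also after thinning, Eef1g under upper quartile scaling and Etf1 with a replicate block (adjusted p up to 0.153, 0.247 and 0.145 over all alternatives). Without LC replicate 1, Eef1b2 (0.40, edgeR adjusted p = 0.0158), Eef2 (0.38, 0.0243) and Dhps (0.67, 0.0726) of this list were also higher. Of 81 tested genes for the ribosomal proteins themselves, 2 were higher and 6 lower, with a median of -0.11 that became 0.03 under library size only. Their summed level was 101340 CPM in LC replicate 1, 62635 and 63824 CPM in LC replicates 2 and 3 and 69086 to 70153 CPM in IP + LC, so that LC replicate 1 lay above and the other LC tumors below every IP + LC tumor. No test compared this list with the initiation factors.

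The promoters were searched for letters known as binding motifs of growth and hypoxia factors, a search chosen after the fold changes were seen. RefSeq gave a window from 250 bases before to 50 bases after the start for 38 of the 49 genes (GRCm38.p6). The E-box CACGTG, which reads the same on both strands and is known as a site of MYC, was present in a window of 10 of the 38 genes (26.3%), against 8.09% of 27025 genes and 11.8% of the 8737 tested genes with a window. Its core ACGTG, the core known from hypoxia response elements and contained in every CACGTG, was present on either strand in 18 (47.4%), against 21.8% and 29.7%. The GC box GGGCGG was present in 30 (78.9%, against 38.2% and 69.2%), CCAAT in 13 (34.2%, against 41.1% and 42.5%) and TGACGTCA in none, against 2.03% and 3.65%. Of the genes with a window, 4 of 13 higher genes and 6 of 25 other genes held the E-box. The core ACGTG was held by 7 of 13 and 11 of 25, the GC box by 10 of 13 and 20 of 25, and CCAAT by 3 of 13 and 10 of 25. These matches are letters in a window, and binding was not measured.

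The 250 bases before the start are shown for Eif4a1 (chr11:69672424-69672673, minus strand) and Eif4a2 (chr16:23107218-23107467, plus strand) on GRCm38.p6, since this pair moved apart. Capitals mark CACGTG, which begins at position -189 of Eif4a1 and does not occur in the stretch of Eif4a2. Both Eif5a and Eif5a2 held the E-box in a window, and Eif5a2 was the other gene called lower. The E-box was also present for Eif1b and Eif3k, neither of them called higher. Whether the motif bears on the fold changes was not tested.
Eif4a1 promoter: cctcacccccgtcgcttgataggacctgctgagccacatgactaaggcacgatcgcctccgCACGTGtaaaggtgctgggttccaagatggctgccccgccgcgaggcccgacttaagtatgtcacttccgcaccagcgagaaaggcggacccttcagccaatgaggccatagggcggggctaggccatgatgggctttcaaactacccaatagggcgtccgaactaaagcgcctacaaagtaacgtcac
Eif4a2 promoter: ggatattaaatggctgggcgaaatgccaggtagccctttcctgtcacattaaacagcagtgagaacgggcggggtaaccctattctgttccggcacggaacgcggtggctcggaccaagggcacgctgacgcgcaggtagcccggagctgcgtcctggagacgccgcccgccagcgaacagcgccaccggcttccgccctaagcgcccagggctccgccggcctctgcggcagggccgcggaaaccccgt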

How the data were processed

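Bulk RNA barcoding and sequencing used an oligo-dT primer that carried a UMI of 10 nucleotides, and 81 bp inserts were read. Per the study's methods and the submitters' processing notes, the authors extracted UMIs with UMI-tools 1.1.1, trimmed reads with Trim Galore 0.6.7, used HISAT2 2.2.1 for alignment on GRCm38 and featureCounts 2.0.1 for assignment to genes. The deposited values are unnormalized counts of unique UMIs per gene in 1 table per tumor. The annotation release and the strand setting are not given in the sources used here. P-values and SDs measure the spread between 3 numbered tumors per group, about whose independence the labels say no more.

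Genes were kept by filterByExpr (minimum count of 10, total of 15), scaled by TMM and tested between IP + LC and LC with the quasi-likelihood test of edgeR 4.0.16 in R 4.3.3, with Benjamini-Hochberg adjustment over all genes and a limit of 0.1. Fold changes are from that fit, and CPM are after TMM. Paralog ratios used log2 of UMIs with a pseudocount of 1 and an exact two-sided permutation test. All 31130 identifiers were found in GENCODE M21, the source of coordinates and coding sequences; copies were searched with blastn 2.17.0+ (81 bases, 95% identity), and promoters came from RefSeq. Alternatives were other scalings and filters, DESeq2 1.42.0, limma 3.58.1 (voom with quality weights), a replicate block, thinning to 592733 UMIs and each tumor left out. In simulated data (10938 genes), 34 of 100 genes changed by 1 and 96 of 100 changed by 2 on the log2 scale were recovered, with 11 false calls. Only these genes were changed, all chosen above a minimum mean CPM. In the data far more were called, 1885 higher and 2203 lower, so the simulated recovery does not measure what the real test missed. Full values were given for genes past the limit, paralog pairs and 4E-binding proteins. The members and lists were chosen with earlier results of these data known. Eif2s3y was not analysed here.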

Additional observations from a re-analysis of the deposited data

How the results depend on the processing

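The number of higher initiation factors, 15, was 10 to 18 under the other scalings, filters, DESeq2, thinning and the stricter limit of 0.05, and 15 with the replicate block, but 27 with limma voom and quality weights. Of 11240 genes tested, 1885 were higher in the main analysis and 3273 with limma voom. Under the other scalings, DESeq2 and the replicate block 1426 to 2520 of 11240 were higher. With the other filters and thinning these were 2315 of 29423 (no filter), 1470 of 7558 (10 UMIs in every library) and 1034 of 8874 (thinning). It was 4 to 29 when each tumor was left out, lowest without IP + LC replicate 2 and highest without LC replicate 1. Among all genes tested, 897 of 11787 (7.61%) were higher without IP + LC replicate 2 and 3324 of 11748 (28.3%) without LC replicate 1. The 4 of 47 initiation factors without IP + LC replicate 2 thus lay close to the share of all genes. Without the other tumors, 1016 to 1307 of 11517 to 11770 genes were higher. The number of lower ones, 2, was 1 under library size only, no filter, a minimum of 10 UMIs in every library, DESeq2, the replicate block, thinning and the limit of 0.05, and 1 to 3 with a tumor left out; Eif4a2 was among them each time. The median of 0.34 became 0.49 under library size only, which moved the median of all genes from 0.02 to 0.18. The log2 ratio of Eif1a to Eif1ax, 0.81, became 1.06 after thinning. For the 17 genes past the limit, 194 of 253 alternative values kept the call, 59 lost it and 0 changed direction; the cause was not tested. No pairing of tumors by number was seen, though so few tumors cannot exclude one: deviations of same-numbered tumors correlated at 0.03, -0.12 and 0.11. With the replicate block 15 were higher, 14 of them among the 15 without it, and 1 was lower. Depth limited the rarest genes. With 3 tumors a change of 1 on the log2 scale was often missed in simulated data, where far fewer genes were changed than were called here.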
